A study of Mus musculus with 4 samples.

Results

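EML cells carrying the KIT mutant D816V were set against EML cells carrying the KIT mutant Del417-419insY, both kept without stem cell factor (SCF). EML is a mouse lymphohematopoietic progenitor line whose growth normally depends on SCF, which binds and activates the receptor tyrosine kinase KIT. The comparison asks how a mutation in the extracellular part of KIT and one in its kinase differ in the expression they go with. The comparison is made of 2 of the 4 arrays in the series, one for each mutant; the other two hold the same populations after 48 h with SCF at 250 ng/mL and serve here only as a second look at the same genotypes. Per the labels' protocols, each mutant was introduced with a retrovirus (pLXSN), transduced cells were selected with geneticin, autonomous populations were then obtained in medium free of growth factor, and KIT-expressing cells were sorted. Each mutant is therefore represented by 1 transduced population. The design text names 48 h for culture with or without SCF, whereas the labels of the arrays without SCF give no time. RNA was hybridised to Affymetrix M430 2.0 mouse arrays. The difference for every gene is the log2 value of the D816V array minus that of the Del417-419insY array, and all 6404 genes that have a probe set with a single symbol enter it. No gene was selected here by its values, but the filter that left these probe sets in the deposited table is not known. With 1 array per group there is no replicate check: each value has n = 1 and no error, no test was made, and precision is limited by the number of arrays.

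KIT is the surface receptor through which SCF controls survival, growth and maturation of blood progenitors and mast cells. Binding of SCF pairs receptors and switches on their kinase, from which signals run through the RAS and ERK kinases, PI3K and AKT, SRC kinases and STAT factors. Del417-419insY changes the extracellular part of the receptor near the membrane, whereas D816V changes the activation loop of the kinase; both are gain-of-function changes found in mastocytosis, in which mast cells accumulate, and both here allow growth without the ligand.

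The deposited values are relative. For each probe set they lie around a zero that no source used here states, so a value of 0 is not absence and a level cannot be compared between genes. Only the difference between arrays within a gene is read below, in log2 units, so that 1 is 2-fold. The base of the logarithm was not stated either and is taken as 2 because the values came from RMA. Because values are relative, the labelled cell type could not be checked by presence of its markers; of the progenitor markers looked for, Kit and Slamf1 were in the table, and Cd34, Flt3, Ly6a, Procr, Prom1 and Cd48 were not among the genes measured. Bulk RNA was measured, so fewer cells of a type and less RNA per cell cannot be told apart.

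Most genes lay close together on both arrays. Over the 6404 genes the median difference was -0.08, with the 25th and 75th percentiles at -0.36 and 0.28 and the 5th and 95th at -0.94 and 1.20. More genes lay below 0 (3567) than above it (2836), but with the arrays centred on their own medians the median difference was 0.01. Among large differences the balance was the other way. At 2-fold or more, 403 genes (6.29%) were higher in D816V and 269 (4.20%) were lower; at 4-fold the counts were 180 and 52, at 8-fold 78 and 11, and at 32-fold 12 and 2. The D816V array was also the more spread out, with an SD of 0.72 over its probe sets against 0.59 for Del417-419insY, and array medians of -0.10 and -0.02.

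**Figure D1:**
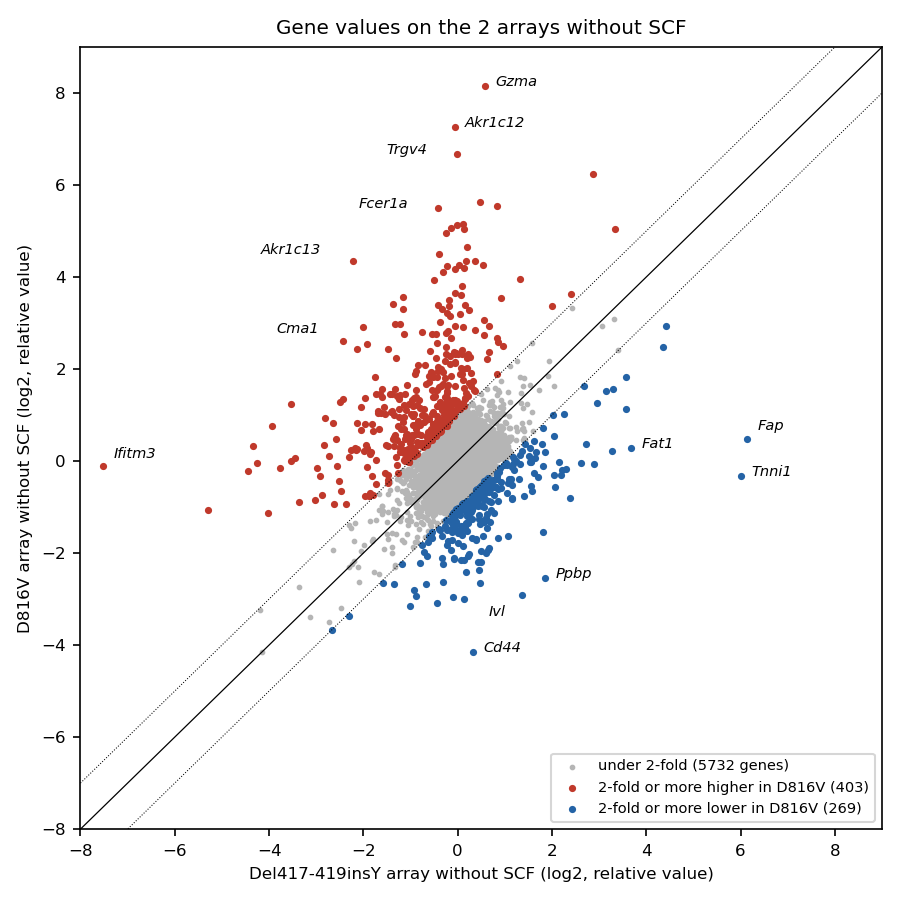
Each point is 1 of 6404 genes, with its log2 relative value on the Del417-419insY array (horizontal axis) and on the D816V array (vertical axis), both without SCF; the solid line marks equal values, the dotted lines 2-fold, red points the 403 genes 2-fold or more higher in D816V and blue points the 269 lower. The points farthest from the line lie above it, with Gzma and Ifitm3 the farthest, at differences of 7.58 and 7.40.

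The largest difference belonged to Gzma, which encodes granzyme A, a serine protease of cytotoxic granules. Its value was 0.57 in Del417-419insY and 8.15 in D816V, a difference of 7.58 or 191-fold. Ifitm3, a membrane protein that restricts virus entry, came next at 7.40, from -7.51 to -0.11.

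The aldo-keto reductases Akr1c12 and Akr1c13, enzymes that reduce steroids and other carbonyls, were higher by 7.33 (values -0.06 and 7.26) and 6.59 (-2.23 and 4.36). They are close paralogs, so that their probe sets may each read both transcripts and the values are uncertain as single-gene values. Trgv4, a variable segment of the T cell receptor gamma chain, was at -0.01 and 6.67, and both of its probe sets gave a difference of at least 6.51. Fcer1a, the chain with which the high-affinity IgE receptor binds IgE, was at -0.43 in Del417-419insY and 5.49 in D816V, 60.5-fold apart. Differences between 4.90 and 5.21 followed for Tph1, which makes the precursor of serotonin, the interferon-inducible GTPases Iigp1 and Gbp2, the tetraspanin Tspan8, the mast cell chymase Cma1, Crybg1, the secreted protein Metrnl, the transcription factor Arnt2 and the tight junction scaffold Tjp1. Tspan8, Crybg1 and Tjp1 had Del417-419insY values of -0.01, 0.11 and 0.14 and D816V values of 5.13, 5.14 and 5.04.

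On the other side, Tnni1, the troponin I of slow skeletal muscle, had the lowest difference, at -6.32. Its value was 6.01 in Del417-419insY and -0.32 in D816V, an 80.1-fold lower level in D816V. Fap, a membrane-bound serine protease best known from activated fibroblasts, was at 6.14 and 0.49, a difference of -5.65. Cd44, the hyaluronan receptor, was at 0.33 in Del417-419insY and -4.14 in D816V, and its 2 probe sets differed by -4.56 and -4.39. The platelet chemokine Ppbp (-4.40), the keratinocyte envelope protein Ivl (-4.28), the atypical cadherin Fat1 (-3.40), the somatostatin receptor Sstr2 (-3.35) and the adenylate kinase Ak8 (-3.20) followed. Below these came Ms4a6b (-3.13), the carbonic anhydrase Car1 (-3.13), the amino acid decarboxylase Ddc (-3.07), the T cell receptor segment Trbv1 (-2.98), 9030619P08Rik (-2.85), Rasgrp2 (-2.80) and the zinc finger gene Zfp711 (-2.71).

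**Figure D2:**
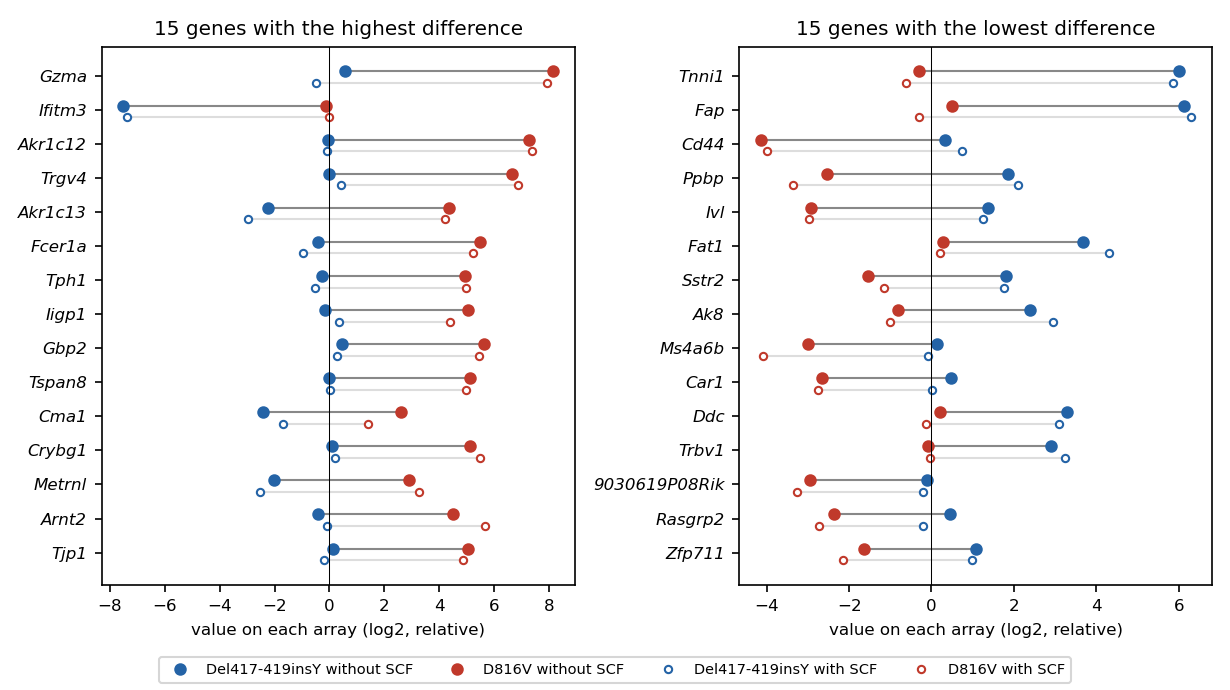
Log2 relative values of the 15 genes with the highest and the 15 with the lowest difference, with Del417-419insY in blue and D816V in red; filled points are the arrays without SCF that rank the genes, open points the arrays with SCF, and a line joins each pair. Gzma runs from 0.57 to 8.15 and Tnni1 from 6.01 to -0.32, and in each of these 30 genes the open points lie in the same order as the filled ones.

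Genes were then read by class, in 48 gene lists, each beside the shares over all genes (6.29% higher and 4.20% lower, median -0.08). Together the lists held 1513 of the genes and 264 of those 2-fold or more apart; the other 408 were in no list.

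The receptor itself came first. Kit was at -0.76 in Del417-419insY and -1.83 in D816V, a difference of -1.07, with its 2 probe sets at -1.23 and -0.92; with both arrays centred on their medians the difference was -0.99, and under cyclic loess normalization -0.51, both under 2-fold. Whether these probe sets read the retroviral transcript as well as the endogenous gene was not tested. Among 8 receptor tyrosine kinases measured, none was 2-fold higher and 2 were lower, Kit and the VEGF receptor Flt1 (1.16 and -0.80, a difference of -1.96). Of 23 cytokine receptor chains, 5 were 2-fold or more higher and 5 lower. The higher ones were Il4ra (2.30), the common beta chain of the IL-3, IL-5 and GM-CSF receptors, Csf2rb (1.502), its IL-3 specific relative Csf2rb2 (1.81), Il12rb1 (1.58) and the decoy receptor Il1r2 (1.10). The lower ones were Il5ra (-2.03), the gp130 chain Il6st (-1.76), Il31ra (-1.39), Il17re (-1.25) and Csf3r (-1.01). The common beta chain and the IL-5 specific alpha chain thus lay on opposite sides. Csf2rb and Csf2rb2 are close paralogs, so their probe sets may share signal.

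STAT5 is a factor that KIT and cytokine receptors activate, and it drives its own inhibitors. Of 15 STAT5 feedback and target genes measured, 8 (53.3%) were 2-fold or more higher in D816V and none was lower, with a median of 1.21. The feedback inhibitor Socs2 was at 0.18 in Del417-419insY and 4.35 in D816V, a difference of 4.17. A second inhibitor of this family, Cish, was at 0.37 and 4.35 (3.99), and Socs1 at 0.09 and 2.41 (2.32). The survival kinases Pim1 (3.000) and Pim2 (2.001), Id1 (2.51), the cytokine Osm (2.01) and the anti-apoptotic Bcl2l1 (1.21) made up the rest. Pim3 (0.81), Ccnd2 (0.80) and Cdkn1a (0.74) lay above 0 but under 2-fold. Below 0 were Bcl6 (-0.54), Socs3 (-0.14) and a TNF receptor family gene in the list, Tnfrsf13b (-0.17). The genes for the factors themselves lay below 0, Stat5a at -0.62 and Stat5b at -0.20.

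Because several of these genes are described together, the promoter letters of Cish are shown. The sequence is from RefSeq, assembly GRCm38.p6, and gives bases 1 to 20 after the gene start at chr9:107296659-107296678 on the plus strand, 5′ to 3′. Capitals mark 2 matches to TTCNNNGAA, the spaced palindrome to which STAT factors bind, searched on both strands.
Cish: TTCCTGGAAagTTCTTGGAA
The same motif was found in the windows from 250 bases before to 50 after the start of 3 of the 11 list members with a window (27.3%), against 427 of 5244 genes measured (8.14%), 38 of 326 higher genes (11.7%) and 13 of 211 lower genes (6.16%). The 3 members were Cish and 2 genes that were not higher in D816V, Bcl6 (-0.54) with 3 matches and Socs3 (-0.14) with 1. Of the higher members, Bcl2l1, Pim1, Pim2 and Socs1 had no match in their windows, and Socs2, Id1 and Osm were without a window here. A match describes letters in this window and nothing about binding.

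The ERK route was read from its feedback and early genes. Of 25 measured, 5 were 2-fold or more higher and 1 was lower, with a median of 0.56. Higher were the AP-1 factors Fosl2 (2.37), Junb (1.56) and Jund (1.16), the ETS factor Etv5 (1.75) and the phosphatase Dusp3 (1.69). Lower was cyclin D1, Ccnd1 (-1.23). Egr1 (0.99) and the ERK phosphatase Dusp6 (0.83) lay under 2-fold, and Fos was at -0.71. For PI3K and phosphoinositide enzymes, 4 of 37 (10.8%) were higher and 2 (5.41%) lower, against 6.29% and 4.20% over all genes. Higher were the adaptor Pik3ap1 (2.13), the phosphatase Inpp5a (2.08), the mTOR inhibitor Ddit4 (1.91) and the leukocyte PI3K catalytic subunit Pik3cd (1.76). Lower were Sgk3 (-1.26) and Inpp4a (-1.14). Of 20 tyrosine phosphatases and SRC, SYK or TEC family kinases, only the receptor phosphatase Ptprg passed 2-fold, at -0.06 and 3.66 (3.72).

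Interferon-inducible genes had the largest share on one side of any list. Interferons signal through JAK kinases to STAT factors and switch on proteins that block virus growth, among them large GTPases that attack membranes of intracellular pathogens. All 9 GTPases measured were 2-fold or more higher in D816V (100% of the list), with a median of 3.04. Iigp1 was at -0.15 in Del417-419insY and 5.06 in D816V, Gbp2 at 0.48 and 5.64, and Gbp7 at -0.05 and 4.17. The smallest differences were those of Ifi47 (1.68) and Irgm1 (1.28, values -0.19 and 1.10), with Mx1 (3.72), Gbp6 (3.04), Igtp (2.58) and Irgm2 (2.28) between. After quantile and cyclic loess normalization the median of the list was 2.56 and 2.02, with all 9 still past 2-fold.

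Of 36 antiviral effectors and sensors, a list that shares Ifi47 with the GTPases, 21 (58.3%) were 2-fold or more higher, 1 was lower, and the median was 1.32. After Ifitm3, the ISG15 protease Usp18 (4.71), Parp14 (4.45), Ifit1 (-0.31 and 4.11, a difference of 4.42), Oasl2 (4.22) and Rsad2, also called viperin (3.82), were the highest. The cytosolic RNA sensors lay on opposite sides: Ddx58, which encodes RIG-I, was at -0.72 and 1.13 (1.85), and Ifih1, which encodes MDA5, at 2.62 and -0.04 (-2.66). Close relatives of Ifitm3 differed far less, Ifitm1 by 1.51 and Ifitm2 by 0.40. Of 27 genes of interferon and JAK-STAT signalling itself, 4 were 2-fold higher, Socs2 and Socs1 as above, the interferon regulatory factor Irf7 (-0.67 and 1.68, 2.35) and Irf1 (1.07), and none was lower. The receptor chains Ifnar1 (-0.52), Ifnar2 (-0.40) and Ifngr1 (-0.14) and the kinases Jak1 (-0.26) and Jak2 (0.37) lay under 2-fold.

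For 3 of these genes the promoter letters are shown, from RefSeq, assembly GRCm38.p6, 5′ to 3′ on the gene's own strand. Capitals mark matches on either strand to the core of the interferon-stimulated response element, searched as TTTC, any 2 bases, then TTTC. Ifitm3 is given from base 3 to base 29 after its start (chr7:141010716-141010742, minus strand), Ifit1 over the 120 bases before its start (chr19:34640769-34640888, plus strand) and Irgm1 over the 120 bases before its start (chr11:48871421-48871540, minus strand).
Ifitm3: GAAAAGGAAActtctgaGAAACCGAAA
Ifit1: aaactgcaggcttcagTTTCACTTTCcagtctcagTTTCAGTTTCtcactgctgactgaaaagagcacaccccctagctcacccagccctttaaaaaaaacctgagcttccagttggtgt
Irgm1: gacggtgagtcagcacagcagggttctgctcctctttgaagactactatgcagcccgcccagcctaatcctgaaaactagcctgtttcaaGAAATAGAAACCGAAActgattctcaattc
The 2 matches in Irgm1 overlap. A match was found in the windows of 5 of 6 GTPase genes (83.3%) and 13 of 27 antiviral genes (48.1%), against 192 of 5244 genes measured (3.66%). Within the antiviral list the share was lower among the genes 2-fold or more higher, 6 of 16 (37.5%), than over the whole list, and Ifih1, the member that was lower in D816V, had 1 match. Among genes 2-fold or more higher it was found in 32 of 326 (9.82%), among those outside the interferon, JAK-STAT and MHC class I lists in 20 of 297 (6.73%), and among lower genes in 4 of 211 (1.90%). These shares describe letters, not sites in use.

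Antigen presentation went with the same array. Of 17 genes of MHC class I presentation, which shows peptides from inside the cell to T cells, 7 were 2-fold or more higher, none was lower, and 16 lay above 0. They were the class I heavy chains H2-D1 (-1.65 and 1.46, 3.11), H2-K1 (-1.36 and 1.01, 2.37) and H2-M3 (1.15), the class I activator Nlrc5 (2.46), the immunoproteasome subunit Psmb9 (1.82), the peptide transporter Tap1 (1.33) and Tapbpl (1.10). The shared light chain B2m was at 0.60. H2-Ke6, the member at -0.04, lies in the MHC region but is not a presentation gene. Class I heavy chains are alike in sequence, so their probe sets may share transcripts. Of 4 class II and dendritic genes, 3 passed 2-fold: the homing receptor Ccr7 (-1.39 and 1.08), the invariant chain Cd74 (-0.30 and 1.68) and the integrin Itgax (-0.94 and 0.18). The class II chain H2-Oa, the member that did not pass, was at 0.71.

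**Figure D3:**
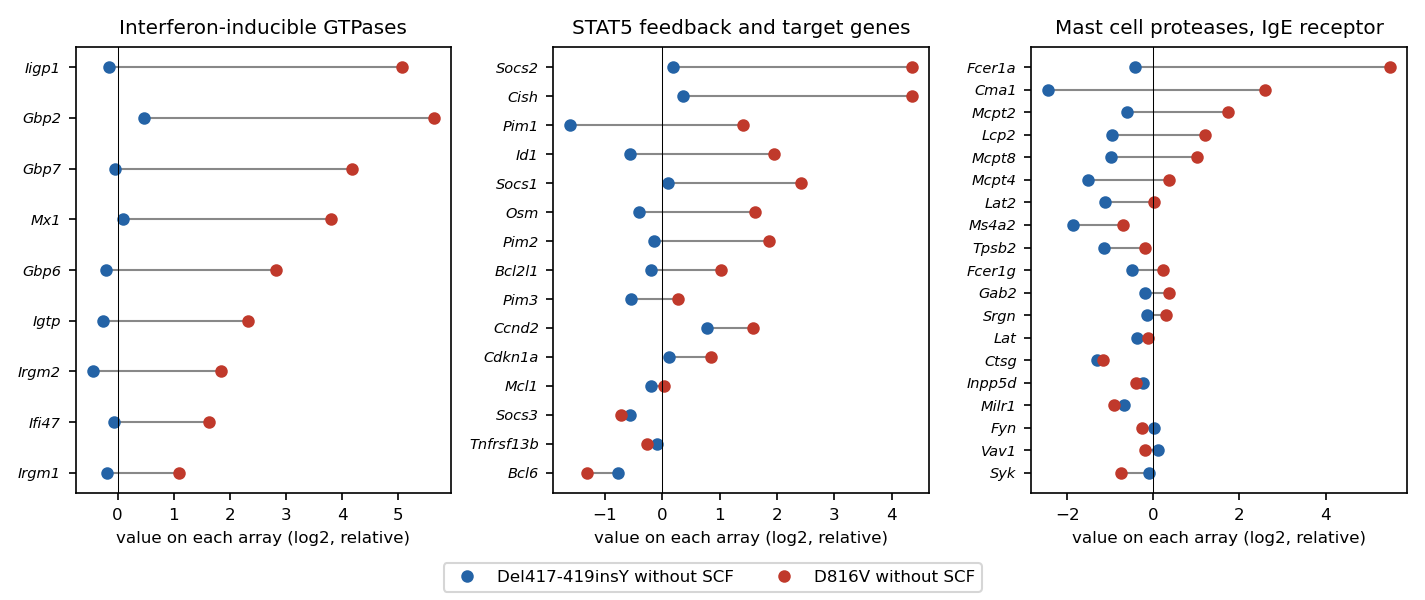
Log2 relative values without SCF of the 9 interferon-inducible GTPases, the 15 STAT5 feedback and target genes and the mast cell protease and IgE receptor lists, with Del417-419insY in blue and D816V in red; a line joins the values of a gene. In all 9 GTPases the D816V point lies to the right of the Del417-419insY point, by 1.28 in Irgm1 to 5.21 in Iigp1.

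Of the mast cell lists, that of the granule proteases and granule proteins had the largest share of higher genes. Mast cells store proteases and amines in granules and release them when IgE receptors are crosslinked. Of 7 granule proteases and granule proteins, 4 were 2-fold or more higher and none was lower, with a median of 1.86. Cma1 was at -2.44 in Del417-419insY and 2.61 in D816V, a difference of 5.04. The chymase-family proteases Mcpt2 (-0.62 and 1.73), Mcpt8 (-0.99 and 1.01), a protease of basophils, and Mcpt4 (-1.51 and 0.35) differed by 2.34, 2.00 and 1.86. The tryptase Tpsb2 was at 0.97 and Ctsg, cathepsin G, at 0.13. Mcpt genes are paralogs, and their probe sets may share signal. Cpa3, Tpsab1 and Il1rl1 were not among the genes measured.

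Of 12 genes of the IgE receptor and its first signals, 4 were higher and none lower: Fcer1a, its beta chain Ms4a2 (-1.85 and -0.70, 1.15) and the adaptors Lcp2 (2.16) and Lat2 (1.15). The shared gamma chain Fcer1g was at 0.72 and the kinase Syk at -0.66. The median of these 12 was 0.39, with 7 above 0. The receptor's binding chain therefore differed far more than its partners. Among 14 enzymes of amine and eicosanoid synthesis, 5 were higher and 1 lower. Histidine decarboxylase Hdc, which makes histamine, was at -1.38 and 0.48 (1.86), prostaglandin D synthase Hpgds at -1.69 and 1.09 (2.78), and thromboxane synthase Tbxas1 at 1.88. Serotonin synthesis was split: Tph1, its first enzyme, was at -0.26 and 4.96, and Ddc, its second, at 3.28 and 0.21, so each gene was high on a different array. The serotonin transporter Slc6a4 was at -2.65 and 0.82 (3.48). In granule traffic 2 of 27 genes (7.41%), near the 6.29% over all genes, were 2-fold or more higher, the secretory GTPase Rab27b (-1.34 and 2.99, 4.32) and the membrane fusion protein Stx3 (1.67).

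Genes of lymphocytes lay far out on both sides. Of 5 cytotoxic granule genes, Gzma and Gzmc were higher and Ctsw lower (-2.08). Gzmc was at 2.88 and 6.23, a difference of 3.35 that turned to -2.28 under cyclic loess normalization, so its direction depends on the scaling. Under that normalization 1 of the 5 was higher and 2 were lower. Of 9 T and NK cell genes, 6 were higher and 3 lower: Trgv4, the CD3 zeta chain Cd247 (2.19), Klrb1f (1.84), Trgv1, the lymphotoxin Ltb (1.65) and Cd7 (1.12) against Trbv1 (2.90 and -0.07), Klrb1b (2.29 and -0.18) and Tox (-1.10). Trgv1 was at 1.72, and at -0.22 after quantile and -3.13 after cyclic loess normalization. Under cyclic loess 3 of the 9 were higher and 4 lower, and the median of the list was 0.65 in place of 1.65. T cell receptor segments resemble each other, and Trgv probe sets may read more than one. The immunoglobulin heavy chain Ighm was at 2.21 and -0.19 (-2.40). Defining T cell markers such as Cd3e, Cd3g, Cd2 and Lck were not among the genes measured, and the NK granule gene Nkg7 was at 0.06.

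Erythroid genes were mostly lower in D816V. Of 15 measured, none was 2-fold higher, 5 (33.3%) were lower and 13 lay below 0, with a median of -0.53. The 2 above 0 were the carbonic anhydrase Car2 (0.94) and Icam4 (0.895), both just under 2-fold. Under other scalings 1 was higher and 5 lower with the arrays centred on their medians, 1 higher and 7 lower after quantile normalization, and 2 higher and 7 lower after cyclic loess. Car1 was at 0.48 and -2.65, the blood group gene Ermap at -0.31 and -2.24 (-1.94), the embryonic globin Hbb-bh1 at 3.16 and 1.52 (-1.63), the erythroid factor Klf1 at 0.04 and -1.18 (-1.22) and the glycophorin Gypc at 0.49 and -0.71 (-1.20). The other embryonic globin, Hbb-y, was at -0.22, and the erythropoietin receptor Epor at -0.45. Platelet genes were divided. Of 12, the fibrinogen receptor chain Itgb3 (2.44) and the thrombin receptor genes F2rl2 (2.35) and F2r (1.42) were higher, and Ppbp (1.85 and -2.54), Nrgn (-1.41), Pf4 (-1.20) and Gp9 (-1.11) lower. The granule chemokines Ppbp and Pf4 were thus lower and the thrombin receptors higher. Of 13 granulocyte and monocyte genes, 4 were higher, the oxidase subunits Ncf1 (-1.49 and 2.43, 3.92) and Ncf4 (1.21), Ccr2 (2.77) and the lysosomal Cd68 (2.29), and 3 lower, Mpo (-1.53), Ms4a3 (-1.06) and Csf3r. The last 3 are genes of granulocyte progenitors or of the receptor for their growth factor. Of these 3, 2 were under 2-fold with the arrays centred and after cyclic loess, Ms4a3 at -0.975 and -0.62 and Csf3r at -0.92 and -0.645, which left 1 lower gene.

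Factors that set blood cell fate differed in both directions. Of 47 measured, 5 were 2-fold higher and 3 lower, shares of 10.6% and 6.38% against 6.29% and 4.20% over all genes. The median of the list was -0.04, and its sign turned under all 3 other scalings. Bhlhe40 (-1.74 and 1.47, 3.21), the inhibitors of DNA binding Id1 and Id2 (1.41), Klf6 (1.44) and Klf5 (1.06) were higher, and Zbtb16 (1.13 and -0.39, -1.52), Sox4 (-1.38) and Klf1 lower. The mast cell factors Mitf and Gata2 were at 0.69 and 0.63, the erythroid factor Gata1 at 0.21 and the myeloid factor Spi1 at -0.20. Of 6 stem and progenitor genes, Slamf1 was higher (0.67 and 2.37) and Kit lower. The one fibroblast marker measured, Pdgfrb, was at 0.10, beside Fap at -5.65; Col1a1, Col1a2, Col3a1, Dcn and Thy1 were not among the genes measured. The protocols list fibroblast lines grown beside EML, and their part in the value for Fap was not tested.

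Cytokines, chemokines and the TNF family each held more genes past 2-fold on the higher than on the lower side. Of 10 cytokines and growth factors, 5 were higher, Metrnl (-2.002 and 2.92), the IL-27 subunit Ebi3 (2.59), Osm, Il15 (1.82) and Tnf (1.20), and Fgf3 was lower (-1.43). Of 11 chemokines and chemokine receptors, 5 were higher, among them Ccl5 (-0.55 and 1.92, 2.48) and Ccl9 (-1.94 and 0.35, 2.29), and 3 lower, the platelet chemokines Ppbp and Pf4 and Ccl25 (-1.002). In the TNF family 5 of 15 were higher, with Tnfsf14 at 1.89 and Tnfrsf18, also called GITR, at 1.26, and the TNF receptor Tnfrsf1a was lower (-1.14). Tnf and its main receptor thus lay on opposite sides. NF-kB and toll-like receptor genes held 3 higher of 24 (12.5%), Nfkbie (1.28), Nfkbiz (1.26) and Irak2 (1.11), and 1 lower (4.17%), Tlr12 (-2.27). The shares over all genes were 6.29% and 4.20%.

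The cell surface differed in both directions. Of 38 immune receptors of the lectin, immunoglobulin and tetraspanin families, 13 (34.2%) were higher and 6 (15.8%) lower. Tspan13 was at -3.93 and 0.77 (4.70), Cd200r4 at -2.81 and 0.93 (3.75), Cd93 at 3.05 and the early activation antigen Cd69 at 2.78. Sirpa, which binds CD47, was at 2.20 and -0.31 (-2.51). Of 21 integrins, cadherins and adhesion molecules, 5 were higher and 4 lower. Itgae, the chain that pairs with beta 7 to bind E-cadherin, was at 0.53 and 4.27 (3.74), and its partner Itgb7 at 1.04. Itgb5 (-2.27) and Itga1 (-1.72) were lower with Cd44 and Fat1. Of 40 matrix proteins, proteases and inhibitors, 8 were higher, led by the collagen Col23a1 (0.08 and 3.61) and the protease Adam8 (2.82), and 6 lower, with the inhibitor Timp2 (0.85 and -1.67) and the Fap relative Dpp4 (2.73 and 0.37) after Fap. The related dipeptidyl peptidases Fap and Dpp4 were thus both lower in D816V. Fap (chr2:62500936-62575509) also lies close to the RNA sensor gene Ifih1 (chr2:62595618-62646255), which was lower by -2.66. Whether a shared position has a part in these differences was not tested.

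G protein-coupled receptors and RGS proteins held 8 higher and 4 lower of 39. The adenosine receptor Adora3 was at -1.16 and 3.31 (4.48), Gpr34 at 0.23 and 3.28 (3.05) and the prostacyclin receptor Ptgir at 1.74. Sstr2 (1.80 and -1.55) and the adhesion receptor Adgrl2 (-2.60) lay on the other side. Among 24 ion channels, 4 were higher and 4 lower, with the potassium channel Kcnk5 (1.99) and the sodium channel Scn11a (-2.63) farthest out. Rasgrp2, an exchange factor for RAP1, was at 0.44 and -2.36. Of 35 contractile, cytoskeletal and muscle-type genes, 6 were higher and 4 lower, and Tnni1 stood alone: the next lowest, the tubulin Tubb2b and the myosin Myh10, were at -1.78 and -1.55, and the other troponin measured, Tnnt1, was at 0.09.

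Metabolic classes held single large differences beside small shifts of their medians, against -0.08 over all genes. The median was 0.24 for solute carriers (72 of 115 above 0) and 0.17 for redox and detoxification enzymes (22 of 38). It was 0.16 for glycolysis and hypoxia genes (17 of 25 above 0) and -0.24 for cholesterol and fatty acid synthesis genes (21 of 30 below 0). Of 38 redox and detoxification enzymes, 8 were higher and 1 lower, and after Akr1c12 and Akr1c13 these were Mgst2 (3.23), Txnrd3 (2.40), the steroid side-chain cleavage enzyme Cyp11a1 (2.34), Cyp4f18 (2.20), haem oxygenase Hmox1 (1.14) and Prdx4 (1.02), against Gstp3 (-2.16). Of 115 solute carriers 6 were higher and 6 lower, shares of 5.22% each, with the glucose transporter genes Slc2a6 (-1.23 and 1.43) and Slc2a3 (-1.27 and 0.77) after Slc6a4. Glycolysis and hypoxia genes held 2 higher (8.0%) and 1 lower (4.0%) of 25, near the 6.29% and 4.20% over all genes. Cholesterol and fatty acid synthesis genes held 1 higher of 30 (3.33%), Elovl7 (1.03). Among 19 apoptosis regulators the anti-apoptotic Bcl2l1 and Bcl2 were higher (10.5%, against 6.29% over all genes). Bcl2 was at 1.06 but under 2-fold, at 0.65 and 0.43, after quantile and cyclic loess normalization. Of 22 p53 and growth arrest targets, none was higher and Perp was lower (-1.08).

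The large families that every dividing cell uses had medians from -0.28 (chromatin modifiers) to 0.05 (chaperones), against -0.08 over all genes. Of 112 respiratory chain and mitochondrial ribosome genes none was 2-fold apart, and of 55 genes in the chaperone and folding list 1 was, Hspb11 (2.27). Of 160 proteasome and ubiquitin genes 10 (6.25%) were higher, near the 6.29% over all genes, and none was lower, against 4.20%. Among the 10 were the interferon-inducible Usp18, Psmb9, Trim30a (1.55) and Rnf213 (1.05). Of 60 ribosome biogenesis genes and related helicases, 1 was higher, Ddx58, and Ddx59 (-1.28) and Ddx18 (-1.21) were lower. In the DNA replication and mitosis list, 1 of 93 was higher, Kif17, and 1 lower, Cenpf, while 69 lay below 0, with a median of -0.24. Lists were filled by gene symbol, and whether Hspb11 and Kif17 share the function of their lists was not tested. Chromatin modifiers held no higher gene of 81 and 4 lower: the DNA methyltransferase Dnmt3b (-1.56), the demethylases Kdm7a (-1.53) and Kdm5b (-1.36) and the deacetylase Hdac4 (-1.05), with 63 below 0. The medians of these last 2 lists stayed below 0 under all 3 other scalings, at -0.09 to -0.16 and -0.19 to -0.22.

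**Figure D4:**
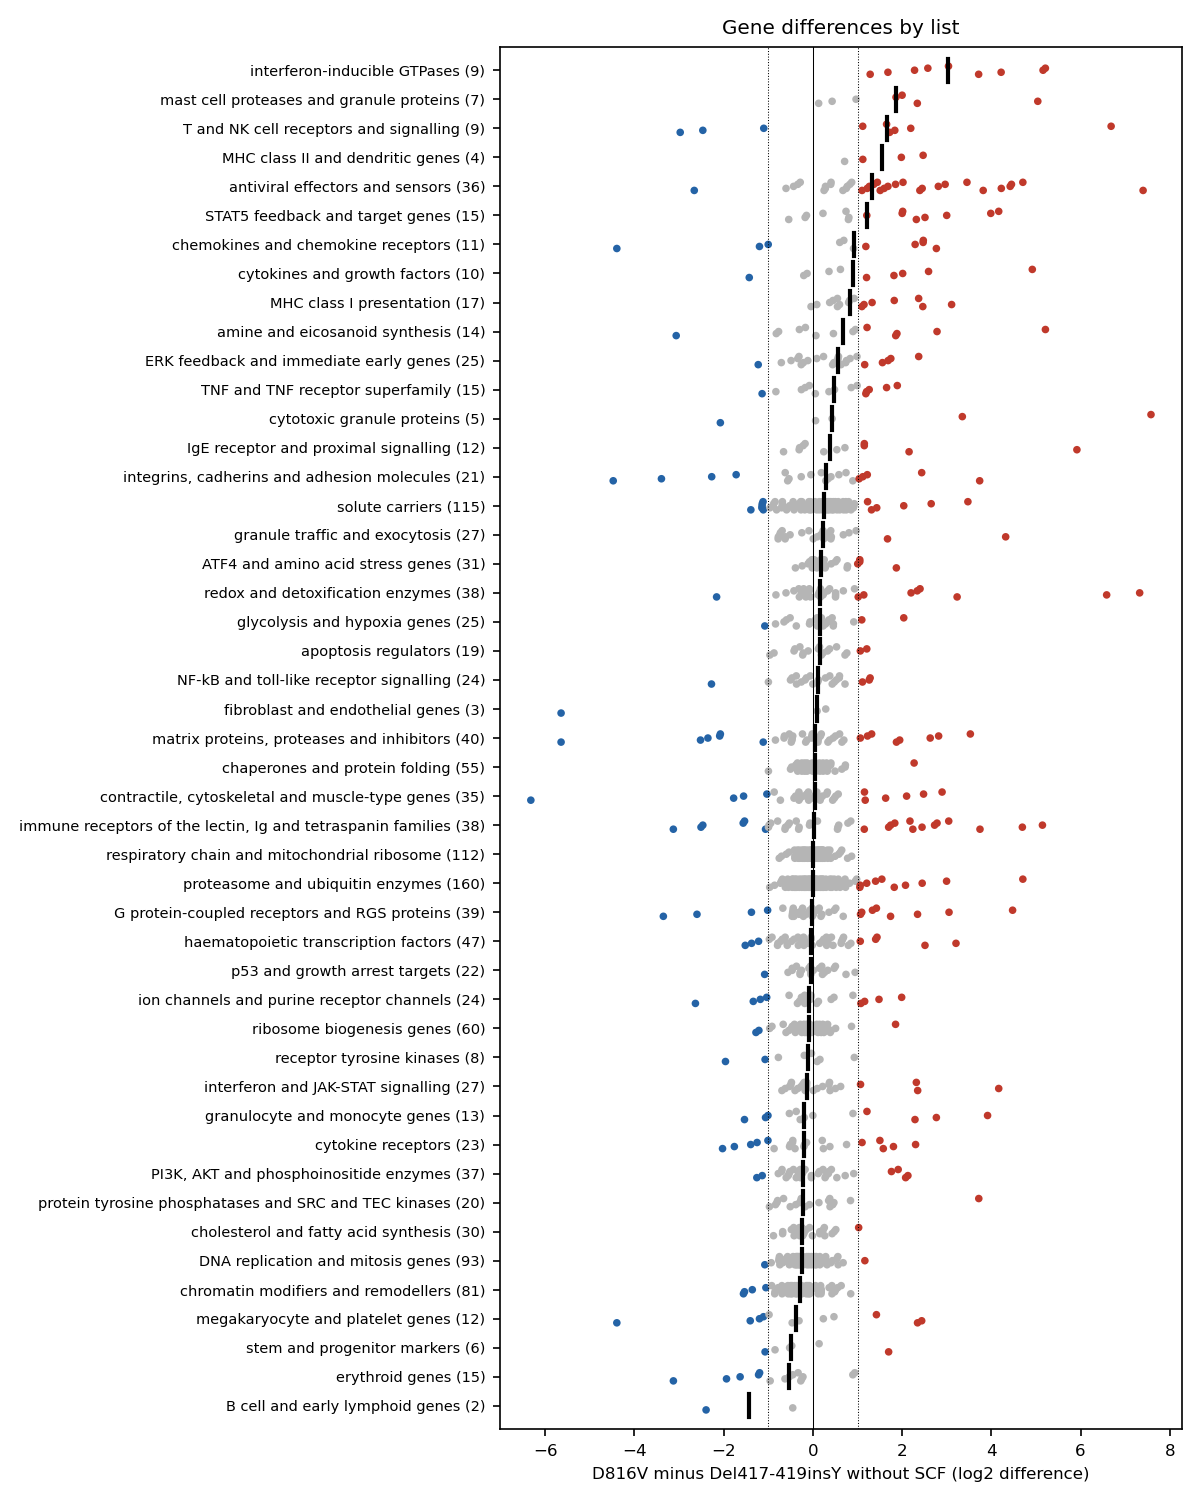
Each point is the difference of 1 gene without SCF (log2, D816V minus Del417-419insY), by gene list with the number measured in brackets, lists ordered by their median (black bar); red and blue points are 2-fold or more higher or lower, and dotted lines mark 2-fold. Interferon-inducible GTPases and mast cell proteases stand at the top with medians of 3.04 and 1.86, and erythroid genes near the bottom at -0.53. The large housekeeping families have medians from -0.28 (chromatin modifiers) to 0.05 (chaperones), with single points far out, as at 4.71 in the proteasome and ubiquitin list.

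The 2 arrays with SCF gave a second difference between the same populations that shares no array with the first. With SCF, 406 genes (6.34%) were 2-fold or more higher in D816V and 475 (7.42%) lower. Of the 403 genes higher without SCF, 330 were also higher with SCF, which is 81.9% of the first list and 81.3% of the second. Of the 269 lower without SCF, 243 were also lower with SCF, 90.3% of the first list but 51.2% of the second. All 78 genes 8-fold or more higher and all 11 genes 8-fold or more lower without SCF were past 2-fold on the same side with SCF. The higher genes had a median of 1.85 without and 1.71 with SCF, and the lower genes -1.36 without and -1.58 with it.

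Among single genes, Gzma stood at 8.44 with SCF, Ifitm3 at 7.34, Fcer1a at 6.20 and Tnni1 at -6.49. Of the mast cell proteases, Cma1 (3.10), Mcpt2 (0.86) and Mcpt8 (1.06) were less far apart with SCF, and Mcpt4 (2.23) and Tpsb2 (1.59) farther apart. With SCF 4 of the 7 granule proteases and granule proteins were 2-fold or more higher in D816V. Ctsg was 2-fold or more lower with SCF, and the median of the list was 1.06. Of the 12 genes of the IgE receptor and its first signals, 2 were 2-fold or more higher with SCF and 1, Syk (-1.09), was lower. Their median with SCF was -0.03, with the beta chain Ms4a2 at 0.09 and Lat2 at 0.415. The interferon-inducible GTPases had a median of 3.06 with SCF, close to that without. Only 73 higher and 26 lower genes were past 2-fold without SCF alone, and 51 and 22 of them were still 1.5-fold or more apart on the same side with it. Kit was farther apart with SCF, at -1.77.

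Among genes past 2-fold without SCF whose difference was small or turned with SCF, stress genes led. ATF4 is the factor of the amino acid and unfolded protein stress response. Nupr1, a stress-induced nuclear protein, was at -1.56 in Del417-419insY and 1.19 in D816V without SCF, and at -0.07 and -0.53 with it, differences of 2.74 and -0.46. Trib3, an ATF4 target that restrains AKT, was at -1.34 and 0.53 without SCF and at 0.09 and -1.22 with it, differences of 1.87 and -1.31. Chac1, which degrades glutathione, went from 1.05 to -1.49, and Ddit3, also called CHOP, from 1.05 to -0.93. In all 4 genes the D816V array was the higher of the pair without SCF and the lower with it. Of 31 ATF4 and amino acid stress genes, 4 were 2-fold or more higher without SCF, Trib3, Ddit3, Chac1 and the serine synthesis enzyme Psph (1.01), and 24 lay above 0; the median was 0.18 without SCF and -0.55 with it. The gap for the list does not rest on Trib3 alone: Atf5 was at 0.25 and -2.24, Asns, asparagine synthetase, at -0.08 and -1.08, and Pck2 at 0.78 and -1.01.

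Cholesterol and fatty acid synthesis genes had a gap in the other direction, with a median of -0.24 without SCF and 0.60 with it. Idi1, an enzyme of isoprenoid synthesis, was at -0.15 and 1.45, and Lss, lanosterol synthase, at 0.15 and 1.16. Other genes past 2-fold without SCF and near or beyond 0 with it included, on the higher side, Gpr183 (1.10 and -0.94) and Secisbp2l (1.46 and 0.17). Ppp1r16b (1.61 and 0.39), Dleu2 (1.43 and 0.29) and Ms4a2 (1.15 and 0.09) were also among them. On the lower side they were Hbb-bh1 (-1.63 and 1.14), Focad (-1.05 and -0.16) and Idh1 (-1.10 and -0.24). For Hbb-bh1 the 3 probe sets ranged from -1.73 to -1.58 without SCF; its Del417-419insY value was 3.16 without and 1.496 with SCF, and its D816V value 1.52 and 2.63. No difference between the conditions could be tested, and a difference in culture time, which the labels do not settle, was not separated from SCF itself.

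**Figure D5:**
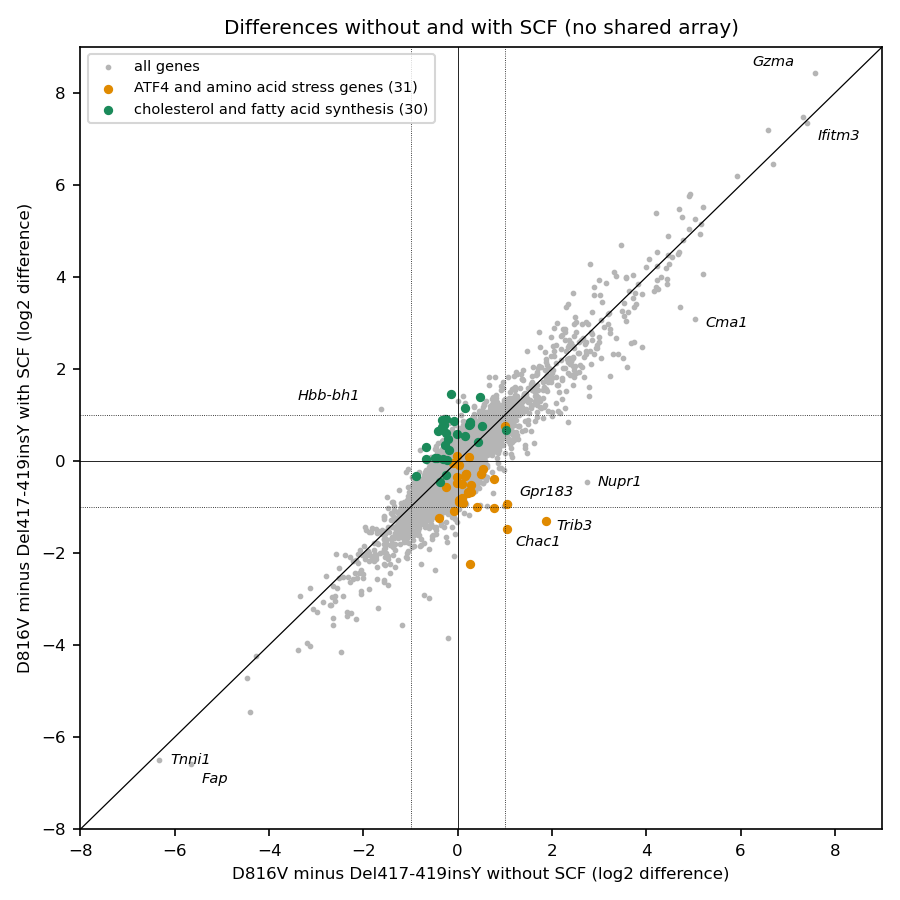
Each point is 1 gene, with its difference (log2, D816V minus Del417-419insY) without SCF on the horizontal and with SCF on the vertical axis; the solid line marks equal differences and the dotted lines 2-fold, with ATF4 and amino acid stress genes in orange and cholesterol and fatty acid synthesis genes in green. The largest differences lie along the line, as Gzma at 7.58 and 8.44, while Trib3 and Chac1 lie in the lower right and Hbb-bh1 in the upper left.

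Where a gene had several probe sets, their differences were set beside each other, though not as replicates. Genes were sorted by the mean of these same probe sets. Agreement in direction was therefore partly fixed by that choice and is no independent check. Of 217 such genes 2-fold or more apart, 215 (99.1%) had all probe sets on the same side, and in 163 each probe set was itself past 2-fold; of 1984 such genes under 2-fold, 1612 (81.2%) had all on the same side. The size was less uniform. The 3 probe sets of Armcx2 gave 0.75, 4.41 and 5.44, the 4 of Ccr2 ranged from 1.08 to 4.28, the 3 of Rasgrp2 from -4.42 to -1.21, and the 2 of Enah, an actin regulator, and of Chchd6 from 3.11 to 5.82 and from 1.24 to 4.01. Tsc22d1 had 4 probe sets below 0, down to -2.73, and 1 at 0.13. At the 2-fold line itself, Lage3 (1.001), Gadd45gip1 (1.002) and Psph (1.005) lay just inside on the higher side and Cmtm4 (0.999), Zfp991 (0.999) and Sqstm1 (0.995) just outside. On the lower side 1810073O08Rik (at 2-fold), Ccl25 (-1.002) and Csf3r (-1.008) lay inside and Dlx1 (-0.999), Bcl3 (-0.998) and Rxra (-0.997) outside.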

How the data were processed

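RNA of both mutant EML populations, kept without or with SCF, was measured on Affymetrix M430 2.0 arrays, 1 for each culture, per the design text. The deposited log2 values were made by the authors with RMA, per the submitters' processing notes; its version, the reference level and the filter that left 10861 of the array's 45101 probe sets are not given in the sources used here, and a filter for variable probe sets would raise the shares of differing genes. Background and brightness could not be examined.

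Probe sets with 1 symbol in the platform annotation (9633; 264 had several and 964 none) were averaged per gene after updating symbols to RefSeq, assembly GRCm38.p6 (11 IDs unmatched), which gave 6404 genes. Differences were taken in Python 3.11.15 with pandas 2.3.3; the averaging step was tested on simulated data. No test was made. Named genes are the 15 highest and 15 lowest whose probe sets share a direction, up to 8 members per list with the largest differences, the genes whose difference without SCF was lost with it, those with the widest probe set ranges, Kit, those at the 2-fold line and the 4 unnamed probe sets farthest apart; other members named only for their role were chosen after their values were seen. The comparison and the gene lists were chosen with earlier results of these data known. Alternatives were array centring, quantile and cyclic loess normalization (limma 3.58.1 in R 4.3.3), other ways to combine probe sets, and thresholds of 1.5-fold and 3-fold. All columns were used. One gene list is not reported here.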

Additional observations from a re-analysis of the deposited data

Results flagged for a closer look

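For 3 genes the D816V array was 2-fold or more on one side of the Del417-419insY array without SCF and 2-fold or more on the other side with SCF. Trib3 differed by 1.87 without and -1.31 with SCF, Chac1 by 1.05 and -1.49, and the embryonic globin Hbb-bh1 by -1.63 and 1.14. With 1 array per group the difference between the conditions was not tested. Trib3 and Hbb-bh1 had 2 and 3 probe sets, all on the side of their mean in both conditions, and Chac1 had 1.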

How the results depend on the processing

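Counts depended on the threshold: at 1.5-fold 783 genes were higher and 809 lower in D816V without SCF (615 and 701 also with SCF), and at 3-fold 237 and 88 (197 and 75). At 2-fold the 8 other settings gave 331 to 449 higher and 219 to 312 lower genes, with 58.0% to 67.0% of the calls on the higher side against 60.0%. Cyclic loess moved the median of all genes by 0.12, array centring by 0.09. Of 215 named genes past 2-fold, 205, 212 and 194 stayed past it on the same side under centring, quantile and cyclic loess normalization. Under cyclic loess those falling under 2-fold included Cd247 (0.71), Klrb1f (0.65), Slamf1 (0.52), Tnfrsf1a (-0.69), Ms4a3 (-0.62), Hspb11 (0.72), Hdac4 (-0.93) and Perp (-0.94). Those that reversed were Gzmc (-2.28, cyclic loess), Trgv1 (-0.22, quantile, and -3.13, cyclic loess) and Tsc22d1 (0.13, without probe sets marked as reading several transcripts); the cause was not tested for the first 2, and for Tsc22d1 that setting leaves 1 probe set. Of 41 list medians under 2-fold, 3, 5 and 7 changed sign or reached 0 under centring, quantile and cyclic loess normalization, from medians between -0.14 and 0.12 except that of granulocyte and monocyte genes (-0.19, and 0.34 under cyclic loess). The median of the STAT5 list was 0.93 without probe sets marked as reading several transcripts. No paired analysis was possible because each group has 1 array. Signal over background is unknown and limits the values to an unknown degree. The zero of the values, the log base and the choice of probe sets were not stated, repeat populations of a mutant were not analysed here, and a difference between mutants cannot be told apart from one between 2 separately selected populations.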

Other observations

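Some large differences belonged to probe sets without a gene symbol in the annotation. The 4 largest differed by 5.97, 4.73, 4.52 and 4.50 without SCF and by 7.20, 4.71, 4.05 and 3.97 with it, all higher in D816V; the first was at 0.77 in Del417-419insY and 6.74 in D816V. As a group, however, the 964 probe sets without a symbol lay lower: 41 (4.25%) passed 2-fold on the higher and 96 (9.96%) on the lower side, with a median of -0.19. Of the 9633 with 1 symbol, 598 (6.21%) were higher and 453 (4.70%) lower, with a median of -0.10.

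Averaging probe sets kept some single ones out of the counts. In 58 genes a probe set was 2-fold or more lower while the mean was not, in 43 genes the same held on the higher side, and in 0 genes did probe sets pass 2-fold on both sides.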
